A study of Mus musculus with 2 samples.

Results

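The genes described here are 10 markers of the mast cell, chosen by symbol from a table of 23233 genes, and all 10 symbols are listed in it. They comprise 4 serine proteases of the secretory granule (Cma1, Mcpt4, Tpsb2 and Tpsab1), the granule carboxypeptidase Cpa3, the granule proteoglycan Srgn and the histamine-forming enzyme Hdc. The other members are the alpha and beta chains of the high-affinity IgE receptor (Fcer1a and Ms4a2) and the transcription factor Gata2. Their RNA was measured in cells of the ventral skin of C57BL/6 mice, 7-day-old, which the sample titles call cells of hair follicles. Living cells of enzyme-digested skin were sorted by flow cytometry into those bound by an antibody against the zinc importer ZIP10 (ZIP10-positive, or positive cells) and those not bound (ZIP10-negative, or negative cells). Polyadenylated RNA of the ZIP10-positive and of the ZIP10-negative cells was sequenced as 1 library each. The labels give neither the number of animals nor any pooling, and no sort on a mast cell marker. With 1 library per group there is no replicate and no test, and each difference describes these 2 libraries. Values are RPKM (reads per length of transcript and size of library), which allows levels of different genes to be set side by side per length. Whether the full or a shortened, effective length was used is not given in the labels, and this bears on the levels of genes with short transcripts such as Srgn.

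Mast cells are tissue-resident granulocytes that are frequent in the dermis, where they lie near vessels, nerves and hair follicles. Their granules hold proteases and histamine bound to the sulfated sugar chains of serglycin, the product of Srgn. When antigen cross-links IgE held by the receptor on the cell surface, the granules are released. Mast cells of connective tissue such as skin are known for the chymases of Cma1 and Mcpt4, the tryptase of Tpsb2 and the carboxypeptidase of Cpa3. Those of mucosal surfaces are known for Mcpt1 and Mcpt2. GATA2 is a zinc-finger transcription factor that the mast cell lineage requires, and it binds DNA at GATA sequences.

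Because GATA2 is itself among the members, the members' promoters were searched for its recognition letters. The sequences below are the 250 bases before the start site in RefSeq on GRCm38.p6, another build than the mm9 of the deposited values. They are written 5′ to 3′ with GATA hexamers in capitals, as TTATCT or the like where the hexamer is on the other strand. The first 3 belong to proteases that were high in ZIP10-positive cells and the others to the IgE receptor chains.
Cpa3 promoter, chr3:20242182-20242431, minus strand: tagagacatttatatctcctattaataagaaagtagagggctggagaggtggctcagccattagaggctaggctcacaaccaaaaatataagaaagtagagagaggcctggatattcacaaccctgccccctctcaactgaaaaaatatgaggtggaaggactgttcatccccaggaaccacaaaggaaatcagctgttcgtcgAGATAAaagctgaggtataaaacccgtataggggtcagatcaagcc
Mcpt4 promoter, chr14:56062311-56062560, minus strand: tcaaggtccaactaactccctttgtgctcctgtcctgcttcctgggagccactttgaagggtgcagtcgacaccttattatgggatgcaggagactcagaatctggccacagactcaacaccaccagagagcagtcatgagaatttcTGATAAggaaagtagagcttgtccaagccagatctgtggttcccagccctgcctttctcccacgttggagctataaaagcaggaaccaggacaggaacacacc
Cma1 promoter, chr14:55944676-55944925, minus strand: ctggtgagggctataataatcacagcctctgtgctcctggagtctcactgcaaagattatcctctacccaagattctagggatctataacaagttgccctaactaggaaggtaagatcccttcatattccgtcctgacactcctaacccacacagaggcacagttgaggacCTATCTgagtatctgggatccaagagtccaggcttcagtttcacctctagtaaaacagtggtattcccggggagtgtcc
Fcer1a promoter, chr1:173227230-173227479, minus strand: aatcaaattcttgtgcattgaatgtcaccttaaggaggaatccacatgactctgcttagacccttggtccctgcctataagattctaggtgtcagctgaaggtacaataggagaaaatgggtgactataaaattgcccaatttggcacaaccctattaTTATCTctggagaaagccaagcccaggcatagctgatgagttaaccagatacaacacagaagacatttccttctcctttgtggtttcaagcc
Ms4a2 promoter, chr19:11623720-11623969, minus strand: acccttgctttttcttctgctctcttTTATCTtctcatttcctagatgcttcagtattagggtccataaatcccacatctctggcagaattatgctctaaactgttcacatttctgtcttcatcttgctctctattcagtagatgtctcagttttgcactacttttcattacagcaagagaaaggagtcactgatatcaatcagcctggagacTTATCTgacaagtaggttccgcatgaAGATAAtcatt
Promoters were found for 8 of the 10 members, in 10 windows because Srgn and Gata2 each have 2 start sites. The hexamers searched were the letters GATA with A or T before them and A or G after them, on both strands. Of the 8 members 6 held at least 1 (Cpa3, Cma1, Mcpt4, Ms4a2, Fcer1a and Hdc), while Srgn and Gata2 held none in these windows. Of 32851 windows of equal length in the RefSeq table, 26.5% held at least 1 hexamer. Ms4a2 held 3, and 6.40% of all windows held 2 or more. The Cpa3 hexamer began 46 bases before the start site, the one in Cma1 79 and the one in Mcpt4 103. The TATA letters TATAAA stood in the gene's own direction 31 bases before the start in Cpa3 and 32 in Mcpt4, and on either strand in 4 of the 8 members (Cpa3, Mcpt4, Fcer1a and Srgn) and 12.4% of all windows. CAGCTG, an E-box that reads alike on both strands, stood in 3 of the 8 (Cpa3, Fcer1a and Srgn) and in 13.0% of all windows. For TATAAA and CAGCTG the member counts are of genes with a match in any of their windows, while the percentages are of single windows. The members' windows differed in base composition, from 38.8% G and C in Ms4a2 to 74.0% in the second window of Gata2, against a median of 52.4% over all windows. A match is a description of the letters and not a binding site.

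The libraries differ in ways that bear on every gene. Slc39a10, the gene of ZIP10, had 49.4 RPKM in positive and 11.1 RPKM in negative cells, a difference in the direction of the labels and no finding. Over 9620 genes that reached 1 RPKM in each library, the median log2 ratio of positive over negative cells was 0.98, and 6 erythroid markers summed to 283685 RPKM in the negative and 16376 RPKM in the positive library. Each member is therefore given as deposited and against this median gene. For Slc39a10 the log2 ratio of (RPKM + 1) was 2.05 as deposited and 1.12 against the median gene. It was 0.86 when the 50 most abundant genes were left out of the scaling and 0.72 when globin genes and Rn45s were. The depth was estimated at 2.78e+06 reads in the positive and 2.71e+06 in the negative library, so that low values stand for a few reads.

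Of the 10 mast cell genes 9 had higher values in positive cells, none had a lower one, and Tpsab1 was listed at 0 in both libraries. As deposited, 8 of the 10 were at least 2-fold higher on the scale of log2(RPKM + 1), where 44.1% of the 12249 genes that reached 1 RPKM in either library were, and 23.3% of all listed genes. At least 2-fold lower were 3.55% of the 12249. Against the median gene 7 of the 10 members were at least 2-fold higher, where 14.7% of the 12249 genes and 7.74% of all listed genes were. At least 4-fold higher as deposited were 5 of the 10, Tpsb2, Mcpt4, Cma1, Cpa3 and Hdc, against 9.8% of those genes. The median log2 ratio of the 10 members was 2.18 as deposited and 1.77 against the median gene, while that of all compared genes was 0.87 and 0.09. Of the 10 members 8 reached 1 RPKM, and Fcer1a, Gata2 and Hdc did so only in the positive library. In a bulk library, fewer mast cells and less RNA per mast cell cannot be told apart.

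**Figure D1:**
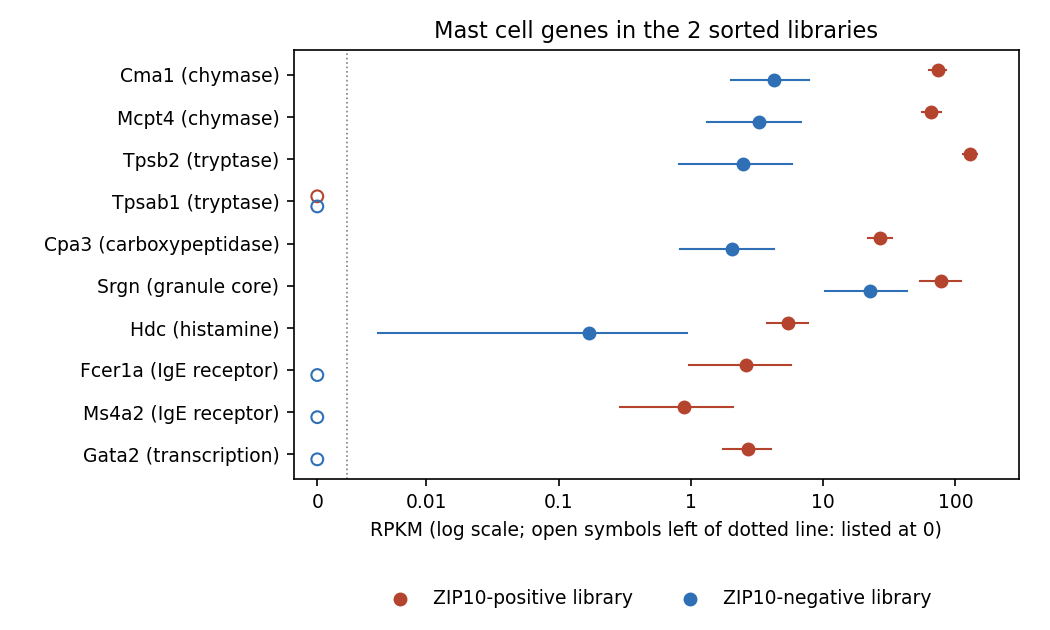
Value of each mast cell gene in RPKM (log axis) in the ZIP10-positive (red) and ZIP10-negative (blue) library, 1 library each. Lines are exact Poisson 95% intervals from the fewest whole reads (Tpsb2: 265 and 5) or, for Fcer1a, Ms4a2 and Gata2, from reads on the longest coding transcript, and cover counting error only; open symbols are genes listed at 0. For the 6 genes above 0 in both libraries the 2 intervals do not overlap, while Tpsab1 is listed at 0 in both.

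The chymases, a group of serine proteases, were among the highest members. Cma1 stood at 73.7 RPKM in positive and 4.22 RPKM in negative cells, a ratio of 17.5. The fewest whole reads that give this ratio are 179 and 10, and their exact binomial 95% interval for the ratio, which covers counting error only, runs from 9.28 to 37.0. Mcpt4, the gene closest to the human chymase in cleavage specificity, stood at 65.8 against 3.28 RPKM, a ratio of 20.1. It rests on at least 144 and 7 reads, with an interval of 9.49 to 50.8. The intervals of the chymase ratios overlap over most of their range. Against the median gene the log2 ratios of Cma1 and Mcpt4 on the log2(RPKM + 1) scale were 2.95 and 3.09. Of the 50-base windows of their annotated transcripts, 5.38% for Cma1 and 5.48% for Mcpt4 also occur in a transcript of another gene. These shares cover exact matches of 50 bases only, and shorter reads or reads placed with mismatches were not tested. All 58 shared windows of Mcpt4 occur in Cma2, a gene of the same cluster, and 7 of them also in Mcpt9.

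The tryptases, trypsin-like proteases stored as tetramers on heparin, were represented by a single gene. Tpsb2 had the highest level of all members, at 129 RPKM in positive against 2.50 RPKM in negative cells, and also the highest ratio of the members above 0 in both libraries, 51.7. Its log2 ratio of 5.22 on the log2(RPKM + 1) scale ranked 41 among 5210 genes that reached 10 RPKM in either library, which Tpsb2 did only in the positive library. The fewest reads that give the ratio are 53 and 1. Its coding transcripts, 932 to 1289 bases long, put the ZIP10-positive reads at about 263 to 391. With 265 and 5 reads the interval of the ratio is 21.9 to 161. Tpsab1, its neighbour in the same gene cluster, was listed at 0 in both libraries. RefSeq lists Tpsab1 as a transcribed pseudogene in the C57BL/6J assembly, and no exact 50-base window is shared between Tpsb2 and another annotated gene.

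Cpa3, a zinc-dependent exopeptidase stored together with the chymases, stood at 27.03 RPKM in positive and 2.06 RPKM in negative cells. The ratio was 13.1, from 94 and 7 reads at the least, with an interval of 6.11 to 33.5. Its level lay below those of Cma1, Mcpt4 and Tpsb2 beyond counting error, with a 95% Poisson interval of 21.8 to 33.1 RPKM in positive cells. Cma1, at 63.3 to 85.3 RPKM, and Mcpt4, at 55.5 to 77.5 RPKM, did not differ from each other in level beyond counting error. The ratio intervals of Tpsb2, Mcpt4, Cma1 and Cpa3 all overlap one another.

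Srgn, the serglycin core protein, is made by many blood cells besides mast cells. It stood at 78.3 RPKM in positive cells, near the chymases, but at 22.6 RPKM in negative cells, where it was the highest member. The ratio of 3.47 was the lowest of the members above 0 in both libraries, with an interval of 1.62 to 8.26 from the fewest reads, 32 and 9. That interval lies below those of Cma1, Mcpt4 and Tpsb2 and overlaps those of Cpa3 and Hdc. Its coding transcripts run from 346 to 1727 bases and allow up to 332 reads in positive cells, and with 320 and 90 reads the interval is 2.74 to 4.43, below those of Cpa3 and Hdc too. Against the median gene the ratio of Srgn was 1.76, with an interval of 0.821 to 4.19 from the fewest reads and 1.39 to 2.25 from 320 and 90 reads. Whether Srgn differed from the median gene beyond counting error thus depends on the read number, which the values do not fix.

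Hdc, the histidine decarboxylase that forms histamine, stood at 5.45 RPKM in positive and 0.169 RPKM in negative cells. This rests on about 33 and 1 reads, and the ratio of 32.2 has a wide interval, 5.39 to 1310. On the log2(RPKM + 1) scale, which understates the change of low genes, the ratio was 2.46 as deposited and 1.98 with the median gene as the zero point. Other genes of histamine handling were low. Hrh1, a histamine receptor, stood at 1.51 against 0.617 RPKM, and Slc18a2, which loads histamine into granules, was listed at 0 in both libraries. Of 6 genes for histamine receptors and breakdown none was at least 2-fold apart on the log2(RPKM + 1) scale (0.63 for Hrh1 as deposited). Of these 6 genes 4 were listed at 0 in both libraries.

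The IgE receptor chains were low. Fcer1a, the chain that binds IgE, stood at 2.62 RPKM in positive cells but was listed at 0 in negative cells. On its annotated coding transcripts this is about 5 to 6 reads. Ms4a2, the signal-amplifying beta chain, stood at 0.891 RPKM, about 1 to 5 reads, and likewise had a listed 0 in negative cells. It was the only expressed member under the minimum of 1 RPKM. Gata2 stood at 2.72 RPKM, about 2 to 25 reads depending on the transcript, against a listed 0. No fold is given for these genes. If no read was counted, the limit of 3 reads in the negative library depends on the transcript. It would be 1.39 RPKM on the longest and 1.77 RPKM on the shortest coding transcript for Fcer1a, 0.505 and 2.47 RPKM for Ms4a2, and 0.328 and 4.94 RPKM for Gata2. On the shortest transcripts the limits of Ms4a2 and Gata2 exceed their values in positive cells, and a difference of either gene was then not detectable at this depth. A listed 0 was not rare at such levels. Of 2094 genes from 2 to 4 RPKM in positive cells 8.17% were listed at 0 in negative cells, and of 2053 genes from 0.5 to 1.5 RPKM 21.7% were.

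In positive cells the levels thus ran from Tpsb2 over Srgn, Cma1 and Mcpt4 to Cpa3, then Hdc, Gata2, Fcer1a, Ms4a2 and Tpsab1. Tpsb2 at 114 to 146 RPKM stood above Srgn, at 53.5 to 110.5 RPKM from its fewest reads, beyond counting error, but Srgn, Cma1 and Mcpt4 could not be ordered. Hdc, at 3.75 to 7.66 RPKM, overlapped Fcer1a, at 0.962 to 5.71 RPKM, and Gata2, at 1.76 to 4.01 RPKM with 25 reads or 0.329 to 9.82 RPKM with 2. The 3 genes whose values lay nearest to those of Tpsb2 in both libraries, by Euclidean distance on the log2(RPKM + 1) scale, were Lst1, Alox5ap and Hist1h4d. Lst1, a leukocyte membrane protein, stood at 139 and 1.74 RPKM, a distance of 0.37. Alox5ap, the activator of 5-lipoxygenase, stood at 169 and 3.40 RPKM, a distance of 0.50. Hist1h4d, a histone gene, stood at 97.7 and 4.00 RPKM, a distance of 0.65. With 2 libraries such likeness is a description only, and no other member was among these 3.

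**Figure D2:**
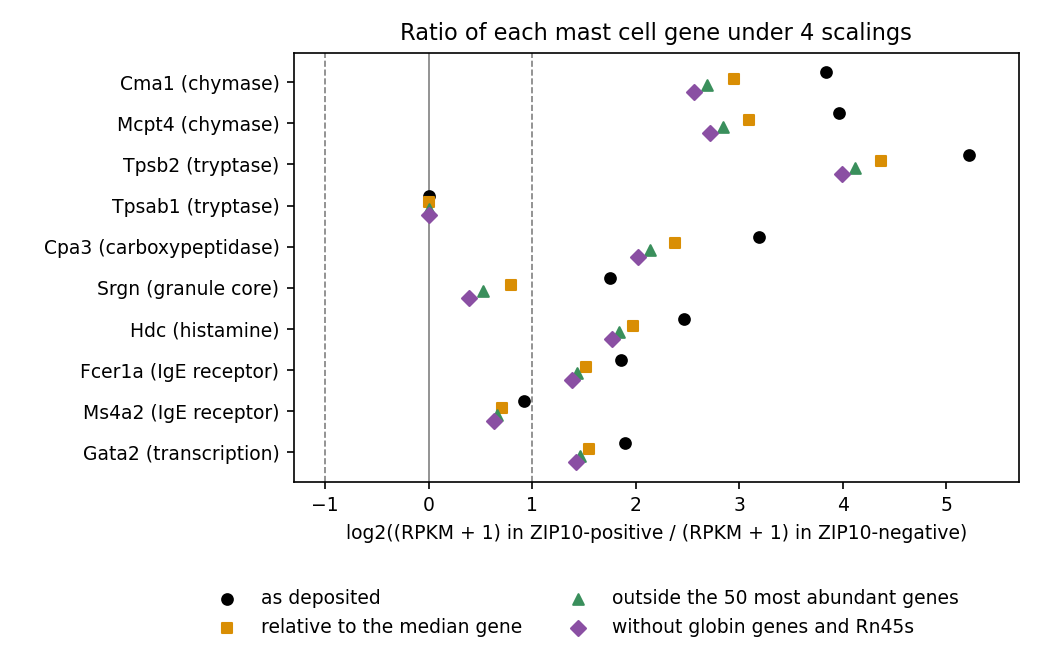
Log2 ratio of (RPKM + 1), ZIP10-positive over ZIP10-negative, of each mast cell gene under 4 scalings of the libraries; dashed lines mark 2-fold. No gene crosses 0 under any of the 4 scalings, and Srgn falls from 1.75 as deposited to 0.80 against the median gene.

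The order of the protease genes along the chromosome set the members beside relatives with other values. Cma1 and Mcpt4 lie in a cluster of chymase and granzyme genes on chromosome 14, of which 13 other members were listed. Of these 3 were at least 2-fold higher in positive cells as deposited (Mcpt8, Cma2 and Gzmb), where 23.3% of all listed genes and 44.1% of compared genes were. None was 2-fold lower as deposited, where 3.55% of compared genes were, and 6 were listed at 0 in both libraries. Against the median gene 2 were higher (Mcpt8 and Gzmb) and 1 lower (Gzmc), where 14.7% and 11.4% of compared genes were. Cma2, at 2.42 against 0.496 RPKM, may rest on as few as 5 and 1 reads. The mucosal mast cell proteases Mcpt1 and Mcpt2 and the cathepsin G gene Ctsg were at 0 in both. Mcpt8, the next gene to Mcpt4 in the listed order and a protease of basophils, stood at 14.7 RPKM against a listed 0. Gzmc, a granzyme, was the highest of the other cluster genes and ran the other way, at 38.7 RPKM in positive and 74.6 RPKM in negative cells. Its log2 ratio was -0.93 as deposited and -1.89 against the median gene. In the tryptase cluster on chromosome 17 Prss34, another basophil protease, stood at 2.13 RPKM against 0. Of 6 tryptase relatives 1 was at least 2-fold higher (Prss34) and 1 lower (Prss22, at a listed 0 against 1.31 RPKM), and 4 were at 0 in both libraries. Of 7 carboxypeptidases related to Cpa3 none was at least 2-fold apart as deposited and 5 were at 0 in both, and Cpa6, at 2.70 against 3.84 RPKM, was 2-fold lower when set against the median gene.

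**Figure D3:**
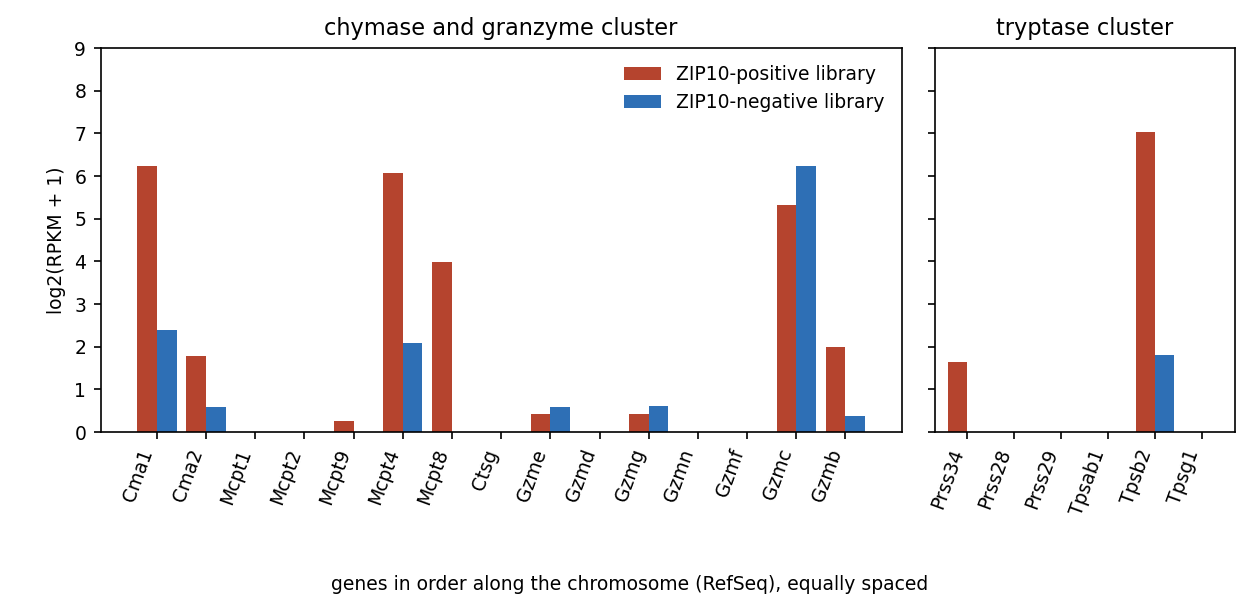
Levels as log2(RPKM + 1) of the chymase and granzyme genes (left) and tryptase genes (right) in chromosomal order, equally spaced, in the ZIP10-positive (red) and ZIP10-negative (blue) library. Cma1, Mcpt4, Mcpt8 and Tpsb2 are higher in the ZIP10-positive library, while Gzmc is higher in the ZIP10-negative library.

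Genes that carry the signal of the IgE receptor did not share the members' ratios. Of 15 signalling genes 1 lay at least 2-fold up (Lyn) and 3 down (Lat, Grap2 and Gab2) as deposited, where 44.1% and 3.55% of compared genes did. Set against the median gene none of the 15 lay up and 5 down, with Fyn and Inpp5d added, where 14.7% and 11.4% of compared genes did. As a list, the signalling genes had a median log2 ratio of 0.03 as deposited and -0.77 against the median gene. Fcer1g, the gamma chain that the IgE receptor shares with other Fc receptors, stood at 163 against 95.7 RPKM. It was far above Fcer1a in both libraries, and its log2 ratio turned from 0.76 to -0.21 against the median gene. Lyn, the kinase that phosphorylates the receptor, stood at 8.67 against 1.96 RPKM and remained higher under each scaling. The adaptors Lat, at 4.53 against 30.7 RPKM, and Gab2, at 0.124 against 1.52 RPKM, were lower. These signalling genes also act in other leukocytes.

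The machinery of granule release was mixed. Of 10 genes 3 were higher by 2-fold or more (Vamp8, Vamp7 and Cd63) and 2 were lower (Rab27a and Unc13d), where 44.1% and 3.55% of compared genes were; with the median gene as zero point, 1 (Vamp8) was higher and 2 lower. Their median log2 ratio was 0.69 and -0.22 on these scales. Vamp8, a membrane fusion protein of secretory granules, stood at 153.7 against 20.9 RPKM and remained higher under each scaling. Cd63, a granule membrane protein, stood at 382 against 120.8 RPKM. Rab27a and Unc13d, which dock granules, ran the other way, at 4.74 and 1.53 RPKM against 10.7 and 4.79 RPKM. Rab27b was higher in positive cells, at 1.06 against 0.0579 RPKM. Its log2 ratio of 0.96 on the log2(RPKM + 1) scale fell just short of the count. Among 9 enzymes that build the glycosaminoglycan chains of granules, 2 were higher by 2-fold or more (Ndst2 and Glce), again a smaller share than that of compared genes, and none was lower as deposited, and none was 2-fold apart from the median gene. For the list, the median log2 ratio was 0.59 and -0.28 on these scales. Ndst2, the sulfotransferase known for mast cell heparin, stood at 6.01 against 1.19 RPKM, and Ext2, which extends the chain, at 32.9 against 18.2 RPKM.

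Genes for lipid mediators and cytokines were mixed. Of 13 mediator genes 8 reached 1 RPKM in a library and 4 were listed at 0 in both. As deposited 6 of the 13 exceeded a 2-fold difference upward, and all 6 reached 1 RPKM. Upward were 44.1% of compared genes and 23.3% of all listed genes. Only 1 of the 13 exceeded it downward, where 3.55% of compared genes did. With the median gene as zero point 4 (Alox5ap, Alox5, Ltc4s and Tnf) did so upward and 1 downward, where 14.7% and 11.4% of compared genes did. Their median log2 ratio was 0.84 and 0.55 on these scales. Besides Alox5ap, the leukotriene genes Alox5 and Ltc4s stood at 4.79 and 5.61 RPKM against 0.140 RPKM and a listed 0. The cytokine gene Tnf stood at 4.32 RPKM against a listed 0. Il13 was the gene lower by 2-fold or more, at 0.358 against 2.94 RPKM. Neutrophils and macrophages also express the leukotriene genes.

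Receptors of mast cell growth and activation were low in both libraries. Of 8 genes 4 reached 1 RPKM in a library. As deposited 2 of the 8 were higher by 2-fold or more (Il3ra and Il9r), and both reached 1 RPKM. For comparison, 44.1% of compared genes and 23.3% of all listed genes were. None of the 8 was lower, and none was 2-fold apart from the median gene. Kit, the stem cell factor receptor, stood at 3.04 against 2.23 RPKM, and its log2 ratio turned from 0.32 to -0.38 against the median gene. Melanocytes also express Kit, and the 5 melanocyte markers summed to 280.05 RPKM in positive and 200.1 RPKM in negative cells. Mrgprb2, a receptor of connective tissue mast cells, stood at 0.575 RPKM against a listed 0. Il3ra, a chain of an interleukin receptor on basophils and mast cells, stood at 7.85 against 2.17 RPKM.

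Of 10 listed transcription factors that act with GATA2 or in the lineage, 3 were higher by 2-fold or more as deposited (Gata3, Tal1 and Lyl1), a smaller share than the 44.1% of compared genes, and none was lower; set against the median gene, none was higher and 1 was lower (Ikzf1). Their median log2 ratio was 0.49 and -0.06 on these scales. Gata1 was listed at 0 in both libraries. Gata3, a factor of T cells and hair follicle cells, stood at 27.5 against 11.6 RPKM, well above Gata2, but its log2 ratio was only 0.25 against the median gene and -0.01 when the 50 most abundant genes were left out of the scaling. Tal1, a partner of GATA factors, stood at 1.18 RPKM against a listed 0. Mitf, a regulator of mast cells and melanocytes, stood at 1.38 against 1.26 RPKM.

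**Figure D4:**
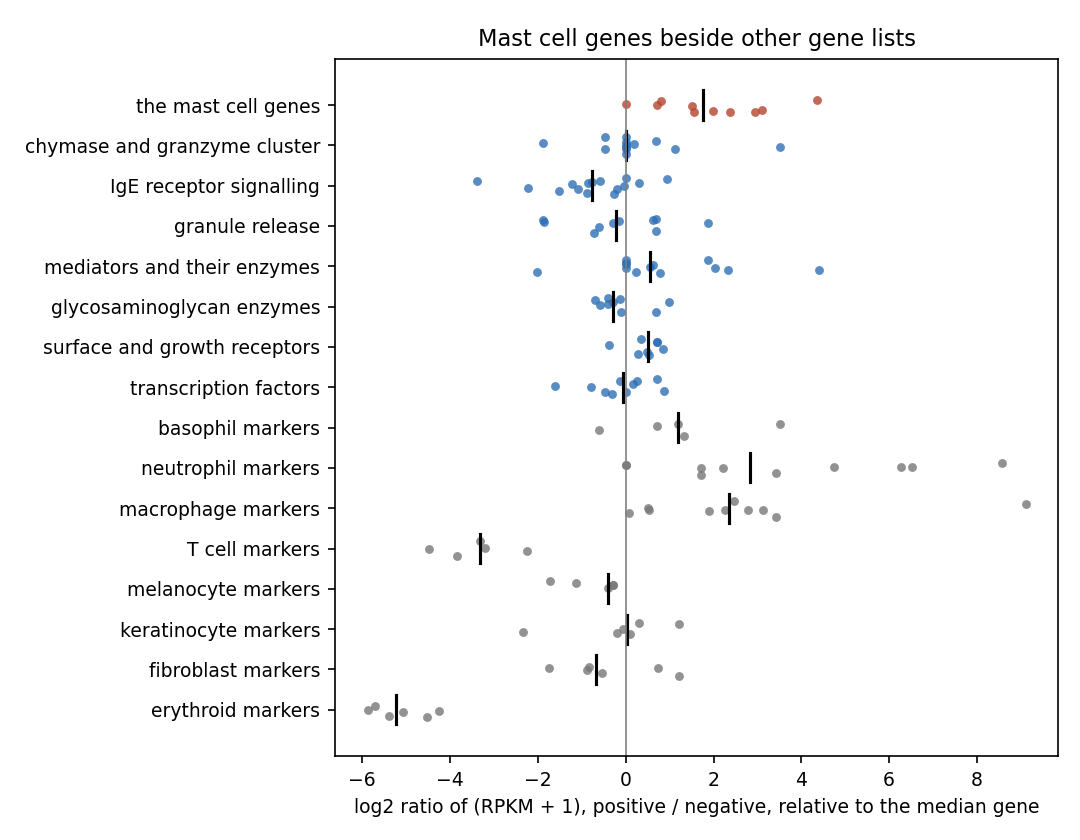
Log2 ratio of (RPKM + 1), ZIP10-positive over ZIP10-negative and against the median gene, for the mast cell genes (red), other genes of mast cell biology (blue) and markers of other cells (grey); each point is 1 gene and black bars are medians. The mast cell median is 1.77, that of IgE receptor signalling -0.77, that of neutrophil markers 2.82 and that of macrophage markers 2.36.

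Markers of basophils, neutrophils, macrophages and dendritic cells were, like the mast cell genes, mostly higher in positive cells, and their part in these values was not tested. Basophils share Fcer1a, Ms4a2, Hdc, Gata2 and Cpa3 with mast cells. Of 5 basophil markers 4 were at least 2-fold higher as deposited and 3 against the median gene, and their summed level was 26.5 RPKM in positive and 2.53 RPKM in negative cells. Mcpt8, Prss34 and Cd200r3 were at 0 in the latter and Itga2 at 0 in the former. Neutrophils also express Hdc and Srgn. Of 10 listed neutrophil markers 8 were at least 2-fold higher on both scales, with sums of 1661 and 16.7 RPKM, and the granule genes Ngp and Camp stood at 127 and 106 RPKM against a listed 0. The early granule genes Mpo and Elane were at 0 in both libraries. Of 10 macrophage markers 9 were at least 2-fold higher as deposited and 7 against the median gene, with sums of 1142 and 50.4 RPKM. Of 5 dendritic and Langerhans cell markers 4 were higher by as much, and 3 against the median gene, with sums of 11.99 and 1.67 RPKM. For comparison, 44.1% of compared genes were at least 2-fold higher as deposited and 14.7% against the median gene.

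Markers of other cells differed in direction, here as deposited. Of 6 eosinophil markers the ribonuclease genes Ear1 and Ear2 stood at 4.48 and 38.8 RPKM against a listed 0, while the defining genes Prg2, Epx, Siglec5 and Ccr3 were at 0 in both libraries. All 5 T cell markers were lower by 2-fold or more in positive cells, with sums of 85.8 and 619 RPKM. All 6 erythroid markers were lower too. Of 5 platelet markers 1 was at least 2-fold higher (Pf4, at 3.74 RPKM against a listed 0), and sums were 5.10 and 3.09 RPKM. Endothelial cells also express Gata2 and Srgn. None of 4 endothelial markers was 2-fold apart on this scale, which understates the change of low genes, and the 4 summed to 4.04 and 1.54 RPKM. Of 4 general leukocyte markers 1 was at least 2-fold higher (Coro1a, at 273 against 118 RPKM), and Ptprc, the gene of CD45, stood at 4.49 against 9.27 RPKM. Of 6 keratinocyte markers 3 were higher (Krt5, Krt14 and Krt15) and 1 lower (Krt10), with sums of 3074 and 1216 RPKM, and of 6 fibroblast markers 2 were higher (Dcn and Lum) and none lower, with sums of 531 and 447 RPKM. Both libraries thus held genes of blood and dermal cells beside the keratins. None of 5 melanocyte markers was 2-fold apart as deposited. For comparison, 44.1% of compared genes were at least 2-fold higher as deposited and 3.55% lower. Against the median gene 2 eosinophil markers and 1 each of keratinocytes, fibroblasts and platelets were 2-fold higher, where 14.7% of compared genes were. Besides all T cell and erythroid markers, 1 each of keratinocytes, fibroblasts, platelets and general leukocytes and 2 of melanocytes were lower, where 11.4% were.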

How the data were processed

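The RPKM values are those the authors deposited, in 1 table with a row for each gene symbol and a column for each library; the name of the table gives the unit. Cufflinks can divide by an effective length, and whether it did so here is not stated. Per the submitters' processing notes, the tools were cutadapt, TopHat and Cufflinks and the build was mm9. For versions, settings, annotation and use of strand, the sources used here give nothing.

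Values were compared as log2((RPKM + 1)/(RPKM + 1)), ZIP10-positive over ZIP10-negative. Every count of genes at least 2-fold apart is on this scale, which leaves out some low genes whose RPKM differ by more. The background was the 12249 genes that reached 1 RPKM in either library, and the members were counted whole. The median gene is the median log2 ratio of the 9620 genes that reached 1 RPKM in each library, and that shift was divided evenly between the libraries before the pseudocount was added.

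Of 1389 genes above 0 and up to 1 RPKM in each library 64.6% stood in a ratio of whole numbers up to 20, times a fixed number of 0.975, at a tolerance of 0.0012%. The fewest whole reads of a gene are the smallest pair that gives its ratio within 0.002%; the true numbers may be a multiple. Depth was estimated from 528 genes with 1 coding transcript in GENCODE vM21, after 199 bases were taken off each length; 27.5% of them fell within 1.4% of the commonest estimate (9.31% with full lengths). Reads for a level came from this depth and the coding transcript lengths of another annotation than the authors'. Reads carry no molecular identifiers, so 95% intervals and the limit of 3 reads for a count of 0 cover counting error only.

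The members and the 10 pathway and 13 marker lists were chosen with earlier results of these data known. Named are all members, up to 4 of the most abundant genes of each list, a few defining genes and the 3 genes nearest to the highest member; some genes that the rule names are left unprinted. Genes named to fill small counts within a list, such as Glce, Il9r, Lyl1 and Ikzf1, and low genes such as Gab2 and Rab27b were named after their values were seen. Spi1 and Ly6g were not analysed here. Alternatives were 3 other scalings, pseudocounts of 0.1 and 5, other filters and a 4-fold limit. Scripts were tested on simulated data. Scripts ran in Python 3.11.15 with numpy 2.4.6, scipy 1.17.1 and pandas 2.3.3.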

Additional observations from a re-analysis of the deposited data

How the results depend on the processing

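The median log2 ratio of the 10 members, 2.18 as deposited, was 1.77 against the median gene, 1.65 when the 50 most abundant genes were left out of the scaling and 1.60 when globin genes and Rn45s were. It was 4.19 with a pseudocount of 0.1 and 1.31 with a pseudocount of 5, and 3.84 over the 5 members with at least 1 RPKM in both libraries. Chosen after the data were seen, it was 2.83 over the 8 members with at least 1 RPKM in a library and 2.11 with members listed at 0 set to 3 reads, on the longest or the shortest coding transcript. The count of members at least 2-fold apart, 8 of 10, was 7 under each of the 3 other scalings, 9 and 6 with the pseudocounts of 0.1 and 5, and 7 or 6 with members at 3 reads on the longest or the shortest transcript. It was 5 among members with at least 1 RPKM in both libraries, since fewer members were counted, and 5 at 4-fold. Set to 3 reads on the shortest transcript, Ms4a2 and Gata2 turned below 0, to log2 ratios of -0.88 and -0.68, and no other member changed sign under any of these settings. Of 6 lists compared, the medians of mediators (0.55, 0.44 and 0.35) and of receptors (0.51, 0.47 and 0.41) stayed above 0 under the 3 other scalings, and those of the other 4 turned below 0, given here in the order of these 3 scalings. For IgE receptor signalling they were -0.77, -0.999 and -1.11, for granule release -0.22, -0.48 and -0.61, for glycosaminoglycan enzymes -0.28, -0.53 and -0.65, and for transcription factors -0.060, -0.21 and -0.32. These scalings shift every ratio by 0.98, 1.26 and 1.39 before the pseudocount. No paired analysis was possible because each group has 1 library. The single library per group limits each value here, and the values of Hdc, Fcer1a, Ms4a2 and Gata2 rest on few reads.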

Other observations

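Between Cma2 and Mcpt1, in the RefSeq order of the chymase cluster, the table lists the transcribed pseudogene Gm5801, named here after its values were seen. It had 46.9 RPKM in positive and 3.26 RPKM in negative cells, a log2 ratio of 3.49, close to those of Cma1 and Mcpt4 at 3.84 and 3.96. Of its 731 annotated windows of 50 bases 435 also occur in transcripts of Ube2j2, a gene outside the cluster, and none in the chymase genes.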
